A study of Bos taurus with 38 samples.

Results

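FOXO transcription factors are forkhead proteins that switch on genes of catabolism, autophagy, stress defence and cell-cycle arrest. Insulin and IGF signalling restrains them, since AKT phosphorylates FOXO1, FOXO3 and FOXO4 and the phosphorylated proteins are bound by 14-3-3 and kept out of the nucleus. In skeletal muscle they are known for driving the atrophy genes FBXO32 (atrogin-1) and TRIM63 (MuRF1), autophagy genes such as GABARAPL1 and BNIP3, and PDK4, the kinase that turns muscle away from glucose oxidation. FOXO6 differs from the others in that it lacks part of the AKT control over nuclear export.

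All 4 FOXO genes of the table were examined, namely FOXO1 (ENSBTAG00000044105), FOXO3 (ENSBTAG00000011234), FOXO4 (ENSBTAG00000004879) and FOXO6 (ENSBTAG00000024115). They were taken by family name out of 27607 genes, with earlier results of these data known, and all 4 were among the 12964 genes with enough counts to be tested. In the RefSeq annotation of ARS-UCD2.0, a later build than the one the counts were made on, FOXO1 lies between MRPS31 and COG6, FOXO3 between ARMC2 and AFG1L, FOXO4 between CXHXorf65 and SNX12, and FOXO6 between EDN2 and SCMH1.

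RNA came from needle biopsies of the Longissimus dorsi (LD) muscle of 38 newborn calves of Angus and Angus-cross dams, taken 12 to 48 h after birth, and was sequenced as poly-A libraries with 1 library per calf. Dams of 10 calves (CTR) received no boluses, while dams of 9, 10 and 9 calves received Se-yeast, an organic form of selenium, in trimester 1 (TR1), 2 (TR2) or 3 (TR3) of pregnancy, as 3 boluses a week for 13 weeks or 105 mg Se per week. Every dam, CTR included, could also eat a mineral mix with 120 mg/kg Se as Na selenite. CTR held 6 males and 4 females, TR1 7 males and 2 females, TR2 7 males and 3 females, and TR3 4 males and 5 females, and dams were 5 to 9 years old. Sexes were taken from the labels, and the numbers by sex in the study's methods differ from these for some groups. The study's cows were bred to 1 artificial insemination sire and, if not pregnant by him, to several bulls, and dams had been assigned to the groups in blocks. The labels give neither the sire nor the block of a calf. Levels are given as CPM, counts scaled to library size, after TMM normalization. Without transcript lengths, levels were compared between groups and calves but not between genes.

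Between 12921223 and 17471666 counts were obtained per calf. Markers of muscle fibres summed to between 44950 and 161300 CPM for the 10 of 14 markers with a gene name. The lowest sum belonged to TR1 calf A2052 and every other calf lay at 69170 CPM or higher, with TR2 calf A2099 at 125800 CPM. By group, the median sum was lowest in TR1 (96750 CPM), followed by TR2 (116900), CTR (120200) and TR3 (126400). A2052 also stood apart in markers of myogenic cells (PAX7, MYF5, MYOD1 and MYOG), with 7.48 CPM against 71.9 to 202.5 CPM in 36 others and 112.5 CPM in A2099. In A2052, 8.69% of tested genes were at least 2-fold above their median over the calves and 12.6% at least 2-fold below it, which ranked it the most deviant of the 38. The next 3 were all TR2 calves, A2023 (7.41% above and 13.05% below), A2100 (5.25% and 8.96%) and A2099 (4.42% and 6.66%). Markers of fibroblasts (5 of 6 named) summed to 222.6 CPM in A2052 against 292.5 to 1217 CPM in the other 36, those of leukocytes (3 of 4) to 42.9 against 18.3 to 272.7 CPM, and the 1 named endothelial marker of 4 stood highest in A2052 at 69.5 CPM. Because a biopsy is bulk tissue, fewer cells of a type and less RNA per cell cannot be told apart, and the part of tissue make-up in the FOXO values was not tested. Results that rest on A2052 or A2099 are given with and without both calves, a choice made after seeing the data.

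FOXO1 was the most variable of the family. Its level spanned 22.6-fold over the 38 calves, from 3.27 to 73.7 CPM, and the SD of its log2 CPM was higher than that of 97.2% of the tested genes. FOXO3 spanned 14.9-fold, from 3.35 to 49.9 CPM (SD higher than in 87.6% of genes). FOXO6 spanned 8.52-fold and FOXO4 4.10-fold. The high end was held by the same animals, since A2052 had the highest FOXO1 and FOXO4 and the second highest FOXO3, and A2099 had the highest FOXO3 and the second highest FOXO1 and FOXO4. For FOXO6 they differed, with A2052 the lowest of all calves at 12.7 CPM and A2099 among the higher ones at 81.8 CPM.

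**Figure D1:**
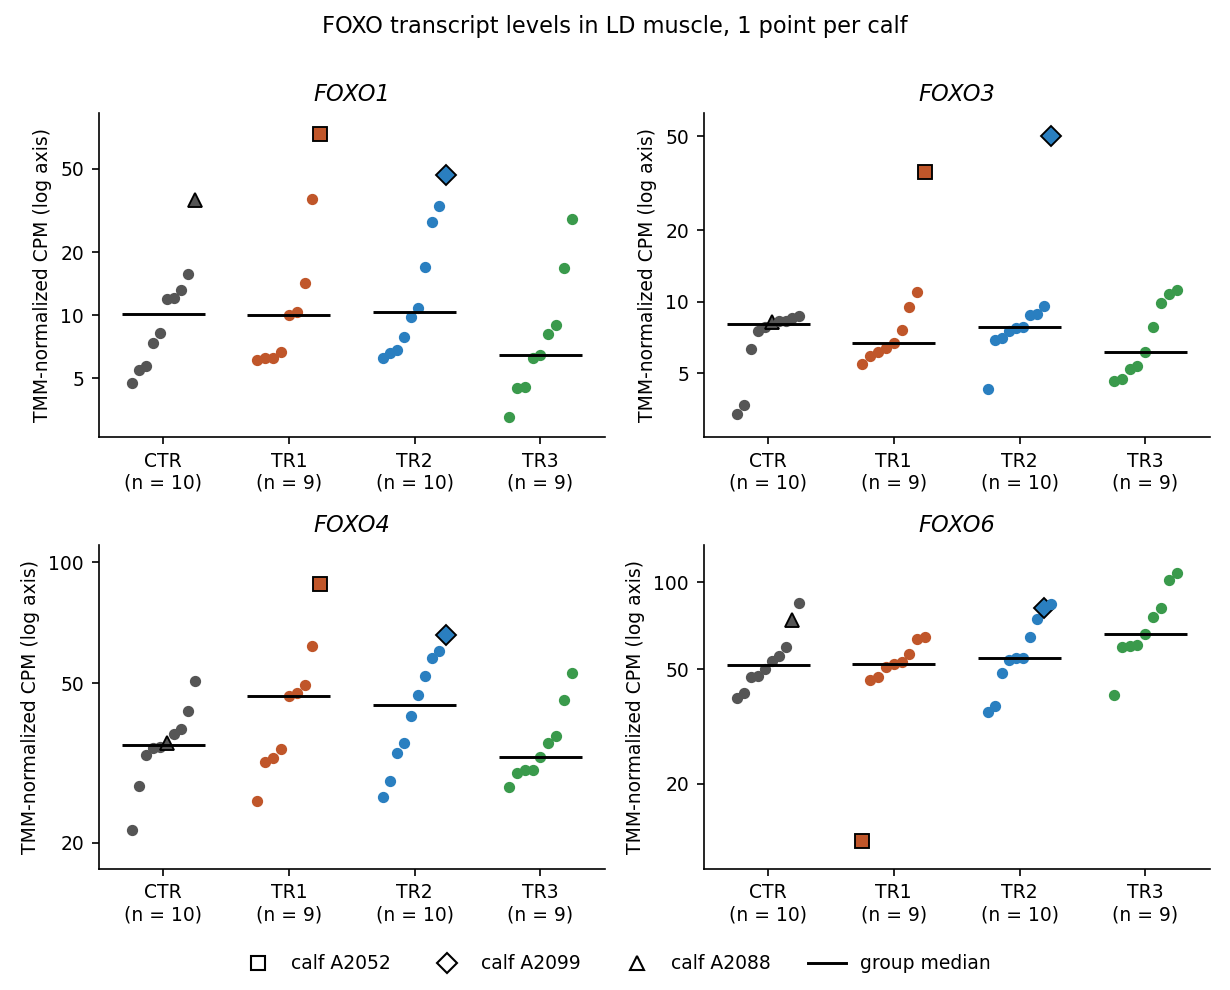
TMM-normalized CPM (log axis) of FOXO1, FOXO3, FOXO4 and FOXO6 in each calf by group, with the group median as a bar and calves A2052 (square), A2099 (diamond) and A2088 (triangle) marked. Groups overlap for every gene, single calves lie far above their group for FOXO1 and FOXO3 (up to 73.7 and 49.9 CPM), and FOXO6 exceeds the CTR median in 8 of 9 calves of TR3.

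The first question was whether Se-yeast given to the dam in any trimester was followed by a different FOXO1 level in the calf. FOXO1, the factor best known for switching muscle to lipid use, lay between 4.73 and 35.4 CPM in CTR with a median of 10.1 CPM. In TR1 it lay between 6.10 and 73.7 CPM (median 10.0), in TR2 between 6.23 and 47.0 CPM (median 10.3), and in TR3 between 3.27 and 28.9 CPM (median 6.49). The medians of CTR, TR1 and TR2 were thus close together and that of TR3 was lower, with 7 of 9 TR3 calves below the CTR median and the groups overlapping throughout. Group means were 12.0 ± 9.02 CPM (SD, n = 10) in CTR, 18.8 ± 22.6 (n = 9) in TR1, 17.3 ± 14.1 (n = 10) in TR2 and 9.76 ± 8.22 (n = 9) in TR3.

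With dam age and calf sex as covariates, edgeR gave FOXO1 a log2 fold change of 0.35 ± 0.51 (SE) for TR1 vs. CTR (p = 0.498, adjusted p = 1.00). For TR2 vs. CTR it was 0.68 ± 0.48 (p = 0.168, adjusted p = 0.695) and for TR3 vs. CTR -0.64 ± 0.54 (p = 0.238, adjusted p = 1.00). The 95% confidence intervals, -0.68 to 1.38, -0.30 to 1.66 and -1.73 to 0.44, all held 0. Those for TR1 and TR2 still hold more than a doubling of the level. With A2052 and A2099 left out the 3 values were -0.091, 0.28 and -0.51. Without A2088, the CTR calf with the highest FOXO1 (35.4 CPM, against 15.7 CPM in the next one), they were 0.73, 1.12 and -0.27, and so the TR1 difference more than doubled and the TR3 difference shrank to less than its SE. In the TR2 comparison that omission also moved the unadjusted p to 0.0247. Other covariates moved the 3 values as well. They were -0.062, 0.26 and -1.01 with dam age as a factor and 0.66, 0.53 and -0.29 without covariates. With only the 2 groups compared they were 0.19, 0.29 and -0.70.

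FOXO3, which drives protein breakdown and autophagy in muscle, was narrowly spread in CTR, between 3.35 and 8.67 CPM with a median of 8.01 CPM. It lay between 5.44 and 35.3 CPM (median 6.72) in TR1, between 4.27 and 49.9 CPM (median 7.78) in TR2 and between 4.61 and 11.2 CPM (median 6.15) in TR3. Each of the 3 medians was below that of CTR, while 3 of 9 TR1, 4 of 10 TR2 and 3 of 9 TR3 calves exceeded the highest CTR calf. Means were 7.06 ± 1.99 CPM (SD, n = 10) in CTR, 10.4 ± 9.51 (n = 9) in TR1, 11.8 ± 13.5 (n = 10) in TR2 and 7.30 ± 2.67 (n = 9) in TR3.

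The FOXO3 mean was highest in TR2, where edgeR gave a log2 fold change of 0.77 ± 0.38 over CTR (p = 0.0468, adjusted p = 0.589). For TR1 vs. CTR it was 0.55 ± 0.38 (p = 0.158, adjusted p = 1.00) and for TR3 vs. CTR 0.015 ± 0.39 (p = 0.969, adjusted p = 1.00). The TR2 value rested on A2099, without which it was 0.16, and the TR1 value on A2052, without which it was -0.087. When both calves were left out the log2 fold changes were -0.023 in TR1, 0.095 in TR2 and 0.073 in TR3.

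FOXO4 ranged from 21.6 to 50.5 CPM in CTR (median 35.1). It ranged from 25.4 to 88.6 CPM in TR1 (median 46.6), from 26.0 to 65.9 CPM in TR2 (median 44.1) and from 27.6 to 53.2 CPM in TR3 (median 32.8). Unlike FOXO1 and FOXO3, its median was higher in TR1 and TR2 than in CTR, with 5 of 9 and 7 of 10 calves above the CTR median, although most calves of each group lay within the CTR range. Means were 35.6 ± 7.81 CPM (SD, n = 10) in CTR, 46.4 ± 19.4 (n = 9) in TR1, 44.8 ± 13.96 (n = 10) in TR2 and 35.8 ± 8.40 (n = 9) in TR3.

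By edgeR, FOXO4 had a log2 fold change of 0.35 ± 0.20 for TR1 vs. CTR (p = 0.0881, adjusted p = 1.00) and of 0.34 ± 0.19 for TR2 vs. CTR (p = 0.0827, adjusted p = 0.611). For TR3 vs. CTR it was -0.041 ± 0.21 (p = 0.844, adjusted p = 1.00). In the 36 calves other than A2052 and A2099 the values were 0.16, 0.25 and 0.031. The TR1 and TR2 differences kept their sign when any calf was left out, but neither passed the adjusted threshold.

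FOXO6 was the only one of the 4 genes with its highest median in TR3. It ranged from 39.6 to 84.6 CPM in CTR (median 51.7), from 12.7 to 64.5 CPM in TR1 (median 52.2) and from 35.6 to 84.3 CPM in TR2 (median 54.6). In TR3 it ranged from 40.8 to 108.1 CPM with a median of 66.0 CPM, and 8 of 9 calves were above the CTR median but only 2 above the highest CTR calf. Means were 55.2 ± 14.3 CPM (SD, n = 10) in CTR, 49.6 ± 15.3 (n = 9) in TR1, 59.0 ± 17.1 (n = 10) in TR2 and 72.8 ± 21.6 (n = 9) in TR3.

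For TR3 vs. CTR, edgeR gave FOXO6 a log2 fold change of 0.51 ± 0.21, or 1.43-fold (95% confidence interval 0.084 to 0.94 on the log2 scale, p = 0.0204, adjusted p = 1.00). It ranked 46 of 12964 genes by p, and no gene passed the adjusted threshold. Low p-values were few in this comparison, with 1.35% of genes under 0.05, less than evenly spread p-values would give. The rank is to be read beside that share. Leaving out any calf kept the log2 fold change between 0.39 and 0.61, with p = 0.0702 without the calf A2102, and without A2052 and A2099 it was 0.41 (p = 0.0177). Without covariates it was 0.40 (p = 0.056). For TR1 and TR2 vs. CTR it was -0.077 ± 0.20 (p = 0.708, adjusted p = 1.00) and 0.083 ± 0.19 (p = 0.672, adjusted p = 0.917).

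**Figure D2:**
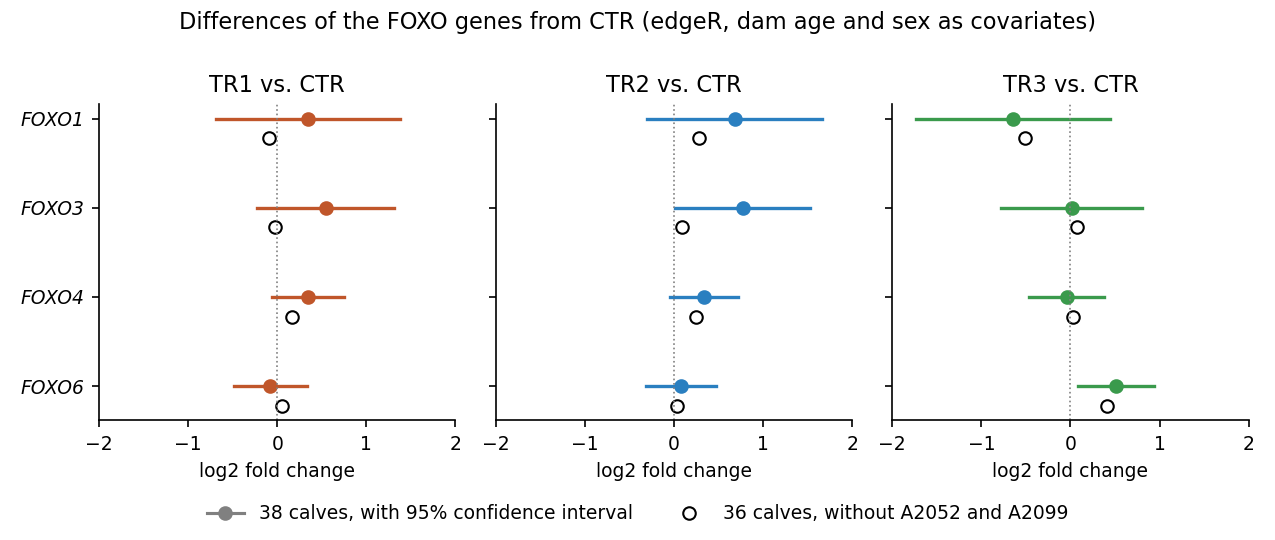
Log2 fold change of each FOXO gene in TR1, TR2 and TR3 vs. CTR from edgeR (filled points, 38 calves, with 95% confidence intervals) and after leaving out calves A2052 and A2099 (open points, 36 calves, no interval drawn). The open points lie near 0 for FOXO1 in TR1 (-0.091) and for FOXO3 in TR1 and TR2 (-0.023 and 0.095), and FOXO6 in TR3 stays at 0.41.

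Counted together, 0 of the 4 FOXO genes had an unadjusted edgeR p under 0.05 for TR1 vs. CTR, where 2.55% of all tested genes did. For TR2 vs. CTR 1 of 4 did (FOXO3), beside 8.34% of all genes, and for TR3 vs. CTR 1 of 4 (FOXO6), beside 1.35%. At an adjusted p under 0.05, 0% of the 12964 genes were called in each of these comparisons (331, 1081 and 175 genes before adjustment). DESeq2 gave the same 2 FOXO genes an unadjusted p under 0.05, with p = 0.0274 (adjusted 0.506) for FOXO3 in TR2 and p = 0.016 (adjusted 1.00) for FOXO6 in TR3. The FOXO3 result in TR2 did not hold in every fit. Its log2 fold change stayed about as large on library sizes without TMM (0.815, p = 0.0502) and in a robust fit (0.77, p = 0.0521). It was smaller with only the 2 groups (0.50, p = 0.201) and with dam age as a factor (0.39, p = 0.326). FOXO4 in TR1 had p = 0.0448 (adjusted 0.913) on library sizes and p = 0.0494 (adjusted 0.994) without covariates. In TR2, leaving out A2023 gave FOXO3 a log2 fold change of 0.92 (p = 0.0201) and FOXO4 one of 0.40 (p = 0.0462), and leaving out A2100 gave 0.81 (p = 0.0437) and 0.31 (p = 0.123).

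A second measure left the spread between calves out. It is the difference between group means of variance-stabilized (VST) values, centred and divided by its SD over genes, with 1.5 as the threshold in size. The study names its scale a log2 fold change, and that its software standardizes differences in this way was inferred here. On it, FOXO1, FOXO3 and FOXO4 reached 1.74, 1.82 and 1.93 in TR1, where 5.35% of all genes were at 1.5 or more. The same 3 genes reached 1.99, 1.94 and 1.55 in TR2, beside 4.87% of all genes. In TR3, FOXO6 stood at 3.01 (5.89% of genes at 1.5 or more) and FOXO1 at -2.39 (5.04% of genes at -1.5 or less), while FOXO3 and FOXO4 were at 0.21 and 0.067. FOXO6 was at -1.34 in TR1 and 0.44 in TR2.

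Several of these values were carried by 1 calf. When A2052 and A2099 were left out, FOXO1, FOXO3 and FOXO4 moved to -0.21, 0.42 and 1.48 for TR1 calves and to 1.09, 0.63 and 1.36 for TR2 calves, so that none of the 6 remained past the threshold. These 2 calves held the highest values of the 3 genes in TR1 and TR2, so leaving them out lowers those group means. Leaving out the CTR calf A2088 instead raised FOXO1 to 2.828 in TR1 and 2.825 in TR2. The FOXO1 value in TR3 was -2.41 without A2052 and A2099 but -0.89 without A2088. FOXO6 in TR3 stayed between 2.29 and 3.38 whichever calf was left out, and it was 3.36 without A2052 and A2099.

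The supplemented groups were also compared with each other, to ask whether the trimester of supplementation mattered. For TR3 vs. TR1 FOXO6 was at a log2 fold change of 0.59 ± 0.22 (p = 0.00956, adjusted p = 0.816), beside 5.85% of all genes at an unadjusted p under 0.05. Without A2052 and A2099 it was 0.36 (p = 0.0477, adjusted p = 0.999). FOXO1 was at -0.99 ± 0.50 for TR3 vs. TR1 (p = 0.0572, adjusted p = 0.861), but at -0.42 (p = 0.379) with both calves left out and -0.36 (p = 0.475) with A2052 alone left out. For TR3 vs. TR2 it was at -1.32 ± 0.58 (p = 0.0289, adjusted p = 0.489). For the latter comparison 9.46% of all genes had an unadjusted p under 0.05, and the FOXO1 value was -0.79 (p = 0.124) without the 2 calves and -0.48 (p = 0.494) when only these groups were fitted.

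FOXO3 and FOXO4 had log2 fold changes of -0.53 ± 0.38 (p = 0.174) and -0.39 ± 0.20 (p = 0.0636) for TR3 vs. TR1, and 0.097 (p = 0.662) and -0.13 (p = 0.494) once A2052 and A2099 were left out. Against TR2 they were at -0.76 ± 0.42 (p = 0.0812) and -0.38 ± 0.21 (p = 0.0864), and FOXO6 was at 0.43 ± 0.22 (p = 0.0558). With both calves left out, the values against TR2 were -0.021 (p = 0.92) for FOXO3, -0.22 (p = 0.254) for FOXO4 and 0.37 (p = 0.0343, adjusted p = 0.701) for FOXO6. For TR2 vs. TR1, where 6.15% of all genes had an unadjusted p under 0.05, the 4 genes lay between -0.0095 (FOXO4) and 0.33 (FOXO1), none with p under 0.05. The FOXO1 value was 0.031 without A2099 and 0.66 without A2052. When any difference among the 4 groups was tested, FOXO6 had F = 2.99 (p = 0.0434, adjusted p = 0.817), beside 6.09% of all genes. Its F was 1.66 (p = 0.192) without A2102. FOXO1, FOXO3 and FOXO4 had p = 0.113, 0.127 and 0.0995. For FOXO1, F moved from 2.13 to 3.35 (p = 0.0296) without A2088 and 1.29 without A2052. For FOXO4 it moved from 2.24 to 2.96 (p = 0.045) without A2057 and 1.28 without A2052.

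Sex and dam age were covariates of these fits. In males and females, the median of FOXO1 was 9.90 and 6.65 CPM, of FOXO3 8.03 and 6.97 CPM, of FOXO4 36.2 and 31.8 CPM and of FOXO6 53.1 and 64.7 CPM. For female vs. male, 0 of 4 FOXO genes had an unadjusted p under 0.05, beside 6.61% of all genes, and the log2 fold changes lay between -0.043 (FOXO4) and 0.39 (FOXO1). Leaving out A2052 gave 0.066 (p = 0.85) for FOXO1 and -0.53 (p = 0.0361, adjusted p = 0.419) for FOXO3. Per year of dam age the values lay between -0.20 (FOXO1) and 0.11 (FOXO6, p = 0.0774), again with 0 of 4 under 0.05, beside 3.36% of all genes. Leaving out A2052 gave -0.090 for FOXO1 and 0.067 for FOXO6, and the FOXO6 p ran from 0.0295 to 0.191 when 1 calf was left out. At an adjusted p under 0.05, 0.0309% of genes differed by sex and 0% with dam age, none of them a FOXO gene.

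Across calves, FOXO1 and FOXO4 went together more closely than the other pairs did. Over 38 calves their log2 CPM had Pearson's r = 0.54 (permutation p = 0.00052, adjusted over 6 pairs 0.00312) and Spearman's rho = 0.46 (p = 0.00428, adjusted 0.0257). Within groups, r was 0.78 (TR1), 0.67 (TR3), 0.45 (TR2) and -0.15 (CTR). The difference between groups was not tested, and the TR1 value includes A2052. After leaving out A2052 and A2099, the 2 calves farthest from the FOXO1 median, r was 0.33 and rho 0.36 (adjusted p = 0.186).

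For FOXO1 with FOXO3, r was 0.49 (permutation p = 0.00209, adjusted 0.00627) but rho only 0.23 (p = 0.17, adjusted 0.28). For FOXO3 with FOXO4, r was 0.46 (p = 0.00349, adjusted 0.00698) and rho 0.22 (p = 0.187, adjusted 0.28). Both Pearson relations rested on A2052 and A2099, without which r was 0.092 and 0.073. FOXO6 had no pair with an adjusted p under 0.05 by rho. It had r = -0.44 (permutation p = 0.00571, adjusted 0.00856) and rho = -0.26 (p = 0.12, adjusted 0.28) for FOXO4, r = -0.34 (p = 0.0402, adjusted 0.0482) and rho = -0.11 (p = 0.502, adjusted 0.582) for FOXO1, and r = -0.24 (p = 0.124, adjusted 0.124) and rho = -0.092 (p = 0.582, adjusted 0.582) for FOXO3. Without the 2 calves these r values were -0.30, -0.15 and 0.0045.

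**Figure D3:**
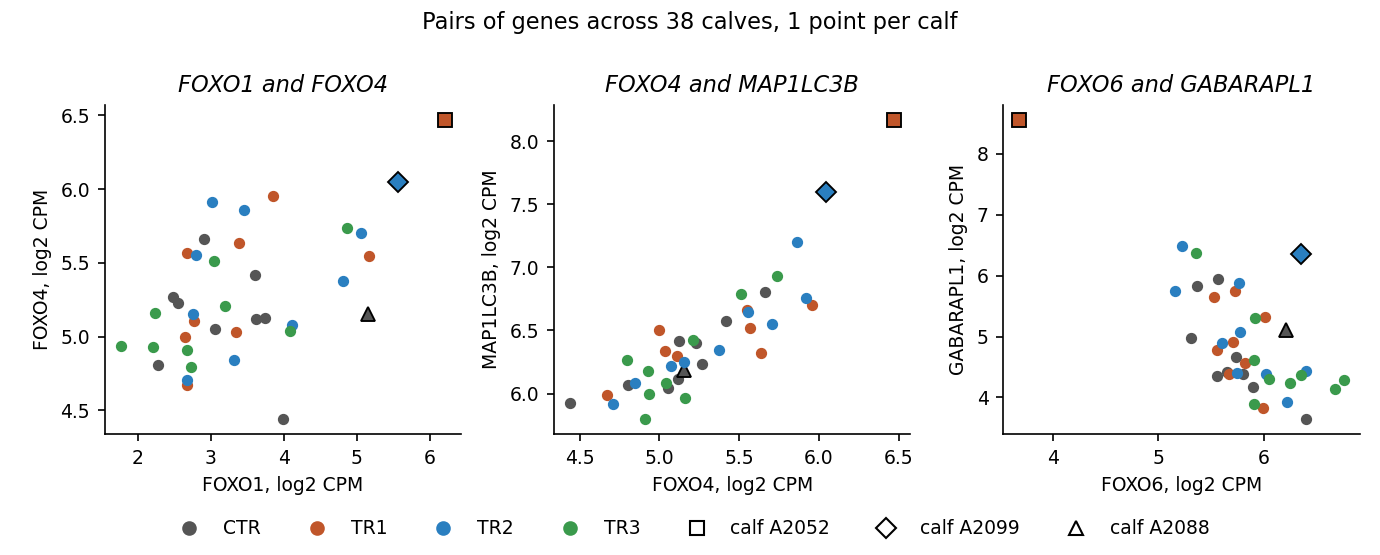
Log2 CPM of FOXO1 and FOXO4, of FOXO4 and MAP1LC3B, and of FOXO6 and GABARAPL1, with 1 point per calf coloured by group and calves A2052, A2099 and A2088 marked. The pairs have rho = 0.46, 0.85 and -0.60 over 38 calves, and A2052 lies at the far end of each.

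The genes with the level pattern most like each FOXO gene were listed by Spearman's rho over the 38 calves, as a description without a test. All points share the same libraries and TMM factors. For FOXO4 the closest of 12963 genes was MAP1LC3B (LC3B, the protein that coats autophagosomes), with rho = 0.85, or 0.83 without A2052 and A2099. MAP1LC3B had its highest group median in TR1 (90.8 CPM), then TR2 (87.3), CTR (73.9) and TR3 (72.3), which is the order seen for FOXO4. MYLIP (a ubiquitin ligase for the LDL receptor, 0.79), CALCOCO1 (an autophagy receptor, 0.77), INPP5K (0.77) and CTSF (the lysosomal protease cathepsin F, 0.77) came next among genes with a name, and NACC1 (-0.81) and PPA1 (the cytosolic pyrophosphatase, -0.78) had the lowest values.

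For FOXO1 the closest gene was CEBPD (the transcription factor C/EBP delta), with rho = 0.77, or 0.73 without the 2 calves. CEBPD was at 23.6 CPM (TR2), 23.2 (TR1), 20.4 (CTR) and 17.4 (TR3) by group median and reached 688.5 CPM in a TR1 calf. MAX, the partner of MYC, had 0.74, and PCBP3, CCDC71L and P4HA3 between 0.69 and 0.70. Among genes with a name, OPA3 and UNC119 were lowest, at -0.71 and -0.70.

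For FOXO3 the closest named gene, MBTD1, ranked 9 of 12963 (rho = 0.71), ahead of RORA (a nuclear receptor of the circadian clock, 0.68), PPM1L, TFDP2 and RNF150. AMT, of the glycine cleavage system, had the lowest value of the genes with a name, -0.62, followed by CCDC114 at -0.56. Among genes with a name, FOXO6 was closest to CELF2 (an RNA-binding splicing factor, 0.68), CARNS1 (carnosine synthase, 0.65), MAFA, UNC45B (the myosin chaperone of striated muscle, 0.63) and PHKA1 (the muscle subunit of phosphorylase kinase, 0.62). Its lowest values among named genes were for RNF144B (-0.71, and -0.80 without the 2 calves) and GABARAPL1 (-0.60).

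To place the FOXO genes beside what they control, 10 genes known as FOXO targets were followed in each calf. They are part of the 28 named targets of the wider list described below, and the counts of pairs cover only these 10. MAP1LC3B is on the wider list but not among the 10. Of the 40 pairs of a FOXO gene with a target, 11 had a Spearman's rho with an adjusted p under 0.05 over 38 calves, 6 without A2052 and A2099, and 1 without the 2 calves farthest from the median of the FOXO gene. The smallest of these 11 values was 0.40 in size. Of the 12963 other genes, 12.7% had a rho of at least this size with FOXO1, 8.81% with FOXO3, 15.4% with FOXO4 and 6.74% with FOXO6, beside 3, 2, 4 and 2 of the 10 targets. Many genes thus varied with the FOXO genes over these calves, and nothing particular to targets is read from the count. For FOXO6 the 2 farthest calves were A2052 and TR3 calf A2102, and for the others A2052 and A2099. The pairs of FOXO1, FOXO3 and FOXO4 thus had the same rho in these 2 settings. Their calls differed only through the joint adjustment with the FOXO6 pairs, so the fall from 6 to 1 is not a second loss of relation. Each permutation p below is adjusted over the 40 pairs.

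FOXO4 was related to FBXO32, with rho = 0.56 (p = 0.00032, adjusted 0.0064) and r = 0.62 (p = 0.00007, adjusted 0.0007), and rho was 0.84, 0.33, 0.79 and 0.18 within CTR, TR1, TR2 and TR3. With GABARAPL1 it had rho = 0.52 (p = 0.00089, adjusted 0.0119) and r = 0.64 (p = 0.00006, adjusted 0.0007), and rho between 0.36 and 0.62 within the groups. FOXO4 was negatively related to PCK2, the mitochondrial PEP carboxykinase, with rho = -0.48 (p = 0.00252, adjusted 0.0168) and r = -0.50 (p = 0.00128, adjusted 0.00366). Without A2052 and A2099 these 3 r values were 0.42, 0.45 and -0.47, and the rho values 0.49, 0.44 and -0.45. In the setting without the 2 farthest calves of each FOXO gene, the adjusted p of each rho was 0.0582.

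FOXO1 was related to GABARAPL1 (rho = 0.50, p = 0.00161, adjusted 0.0129, with r = 0.62, p = 0.00011, adjusted 0.000867), PDK4 (rho = 0.47, p = 0.00355, adjusted 0.0203, with r = 0.53, p = 0.00068, adjusted 0.00227) and TRIM63 (rho = 0.45, p = 0.00448, adjusted 0.0224, with r = 0.58, p = 0.00013, adjusted 0.000867). Without the 2 calves r was 0.42, 0.41 and 0.37, and rho 0.42, 0.39 and 0.36. With FBXO32, FOXO1 had rho = -0.0091 (adjusted p = 0.957). FOXO3 in turn was related to TRIM63 (rho = 0.52, p = 0.00126, adjusted 0.0126, with r = 0.64, p = 0.00044, adjusted 0.0016) and FBXO32 (rho = 0.44, p = 0.0059, adjusted 0.0262, with r = 0.70, p = 0.00003, adjusted 0.0006). Here r was 0.46 and 0.42 without the 2 calves, and rho 0.44 and 0.34. For both ligases the FOXO3 relation in TR1 included A2052, which had 1148 CPM of TRIM63 and 158.9 CPM of FBXO32 against CTR medians of 110.1 and 7.44 CPM.

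With GABARAPL1, FOXO6 had rho = -0.60 (p = 0.00015, adjusted 0.006) and r = -0.72 (p = 0.00001, adjusted 0.0004), the former p being the smallest of the 40, and rho was negative in every group, between -0.36 and -0.50. Without A2052 and A2102, r was -0.52 and rho -0.54. With KLF15, a glucocorticoid-responsive factor of muscle metabolism, FOXO6 had rho = -0.41 (p = 0.0125, adjusted 0.0455) and r = -0.63 (p = 0.00117, adjusted 0.0036), and r was -0.24 without these 2 calves. FOXO4 had rho = 0.40 with KLF15 (p = 0.0118, adjusted 0.0455) and r = 0.58 (p = 0.00025, adjusted 0.00125), or r = 0.31 without A2052 and A2099. Both KLF15 calls were unstable, being lost in 19 (FOXO4) and 21 (FOXO6) of 38 fits that left out 1 calf and in 3 of 4 other settings each. FOXO6 with GABARAPL1 kept its call in 4 of 4 such settings (highest adjusted p = 0.0252). It was the 1 pair left without the 2 farthest calves. There FOXO4 with FBXO32, GABARAPL1 and PCK2 had an adjusted p of 0.0582, at the same rho as without A2052 and A2099. The called pairs of FOXO1, FOXO3 and FOXO4, KLF15 aside, each kept theirs in 3 of 4. No pair beyond those named had an adjusted p under 0.05 by rho over 38 calves. For FOXO6 the values were -0.28 with FBXO32 (adjusted p = 0.157), -0.27 with TRIM63 (0.165), -0.38 with PDK4 (0.0551) and 0.28 with PCK2 (0.155). On residuals after sex, dam age and group, FOXO1 with CDKN1A gained a call (rho = 0.50, adjusted p = 0.0252). So did FOXO3 with KLF15 (0.45, adjusted p = 0.0274) and FOXO4 with MDM2 (-0.41, adjusted p = 0.0403).

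**Figure D4:**
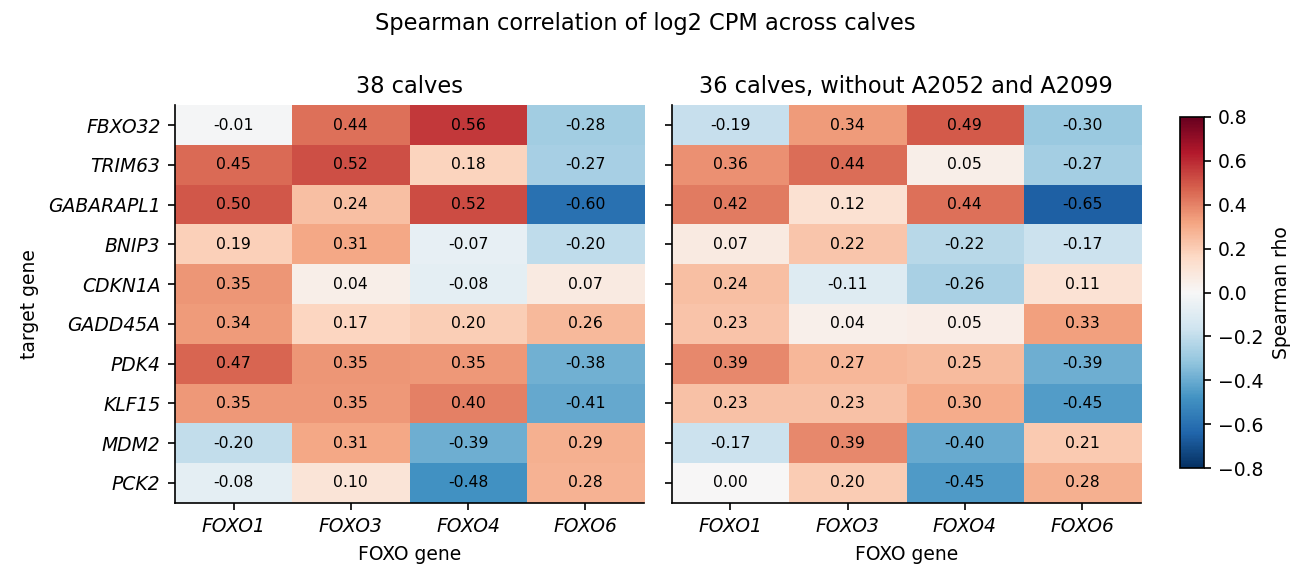
Spearman's rho of log2 CPM between each FOXO gene (columns) and 10 target genes (rows), over 38 calves on the left and without calves A2052 and A2099 on the right, coloured from blue (negative) to red (positive). GABARAPL1 runs from 0.52 with FOXO4 to -0.60 with FOXO6, and most positive values of FOXO1 and FOXO3 shrink on the right.

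A wider list of 47 FOXO targets was drawn up from general knowledge, of which 28 carried a gene name in the study's tables and could be used. Because those tables name genes the study selected on these calves, the list is not independent evidence of a direction. In TR1 vs. CTR, 21 of the 28 had a log2 fold change above 0 (median 0.48, and 0.0016 over all genes, of which 50.4% were above 0), 5 of them with an unadjusted p under 0.05, beside 2.55% of all genes, and 0 with an adjusted one. Under 6 other settings the 5 became between 2 and 14, and the share of all genes between 1.85% and 4.32%. Without A2052 and A2099, 13 of 28 were above 0 (median -0.027) and 1 had p under 0.05, beside 1.81% of all genes. In TR2 vs. CTR 21 of 28 were above 0 (median 0.32), beside 51.3% of all genes. At an unadjusted p under 0.05, 4 were higher and 1 lower, beside 5.03% and 3.31% of all genes, and these counts were also 4 and 1 without the 2 calves, beside 6.91% of all genes in either direction. The number above 0 was then 16 of 28 (median 0.084). In TR3 vs. CTR 7 of 28 were above 0 (median -0.18), beside 47.2% of all genes, with 0 at an unadjusted p under 0.05 (1.35% of all genes), or 8 of 28 without the 2 calves (median -0.086), where 2 were lower with an unadjusted p under 0.05, beside 1.91% of all genes in either direction.

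PCK1, the cytosolic enzyme of gluconeogenesis and glyceroneogenesis, had the smallest p of the target list in TR1, with 9 of 9 calves above the CTR median, a log2 fold change of 1.07 ± 0.38 (p = 0.00823, adjusted p = 1.00) and 1.00 (p = 0.0149) without the 2 calves. Its level was low, at 0.456 ± 0.134 CPM (SD, n = 10) in CTR and 1.00 ± 0.447 (n = 9) in TR1. The mitophagy receptors BNIP3 and BNIP3L followed, at 0.47 ± 0.22 (p = 0.0357) and 0.41 ± 0.19 (p = 0.0362), and were at 0.096 (p = 0.533) and 0.21 (p = 0.164) without the 2 calves. In TR2 the smallest p belonged to PNPLA2 (adipose triglyceride lipase), above the CTR median in 10 of 10 calves with 1.19 ± 0.36 (p = 0.00214, adjusted p = 0.497), PCK1 with 1.17 ± 0.37 (p = 0.00278, adjusted p = 0.497) and the autophagy kinase ULK1 with 0.61 ± 0.22 (p = 0.01, adjusted p = 0.545). All 3 kept an unadjusted p under 0.05 without the 2 calves, at 0.88, 1.27 and 0.34.

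In TR3 the target with the smallest p was KLF15, below the CTR median in 9 of 9 calves, at -0.99 ± 0.49 (p = 0.0526, adjusted p = 1.00) and -0.66 (p = 0.028) without the 2 calves. TXNIP, an inhibitor of glucose uptake, was at -0.58 ± 0.31 (p = 0.0682) and DEPP1 at -0.84 ± 0.45 (p = 0.0691). By function, the 2 ubiquitin ligases of the list stood at medians of 0.85 (TR1), 0.64 (TR2) and -0.65 (TR3) on the log2 scale, and these became, without the 2 calves, -0.13, 0.14 and -0.35. The 8 metabolic targets had medians of 0.32, 0.55 and -0.40, or -0.072, 0.19 and -0.31 without the 2 calves. For the 6 autophagy genes they were 0.44, 0.27 and -0.11, or 0.089, 0.13 and -0.016.

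**Figure D5:**
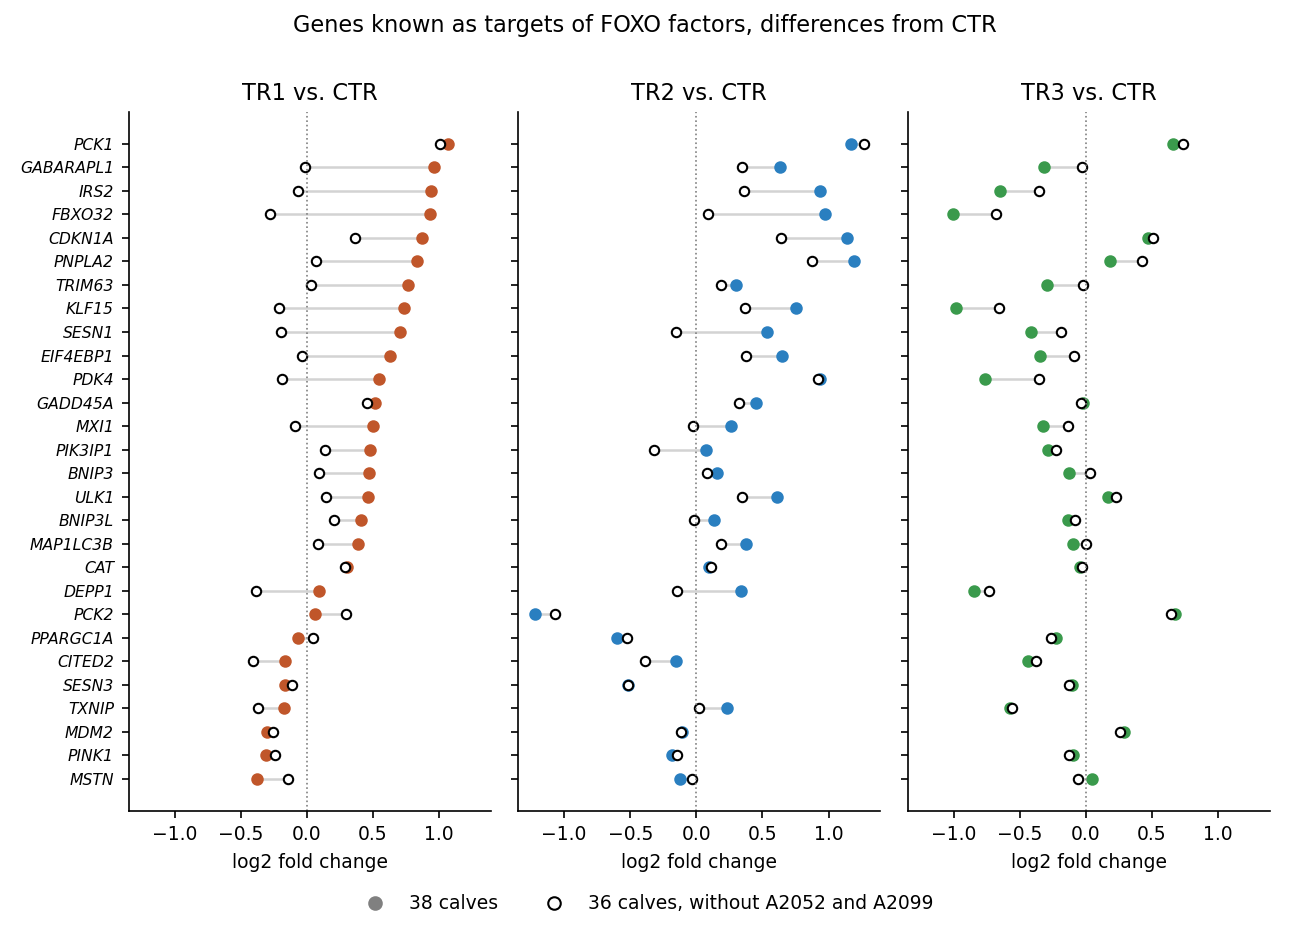
Log2 fold change of 28 FOXO target genes in TR1, TR2 and TR3 vs. CTR, over 38 calves (filled) and without calves A2052 and A2099 (open), in the order of the TR1 values, with a grey line joining the 2 values of a gene. In TR1 21 filled and 13 open points lie above 0, and in TR3 7 and 8.

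Regulators of FOXO activity were represented by 14 named genes of 54 listed. The names again come from tables of genes the study selected on these calves, so the counts beside all genes are not independent evidence. In TR1 vs. CTR, 7 of 14 had a log2 fold change above 0, beside 50.4% of all genes, and 0 an unadjusted p under 0.05, beside 2.55%. With A2052 and A2099 left out, 3 of 14 were above 0. In TR2 vs. CTR 9 of 14 were above 0, beside 51.3% of all genes (7 of 14 without the 2 calves), and, beside 8.34% of all genes, 3 had an unadjusted p under 0.05, namely IKBKB (the IKK-beta kinase, 0.47 ± 0.19, p = 0.0163), CSNK1E (casein kinase 1 epsilon, 0.43 ± 0.20, p = 0.0444) and YWHAH (14-3-3 eta, 0.41 ± 0.20, p = 0.0471), each with an adjusted p of 0.545 to 0.589. In TR3 vs. CTR 5 of 14 were above 0, beside 47.2% of all genes (6 of 14 without the 2 calves), and 1 had an unadjusted p under 0.05, beside 1.35%, namely PDPK1 (PDK1, the kinase that activates AKT), at 0.31 ± 0.14 (p = 0.0394, adjusted p = 1.00). SGK3 and XPO1, the exportin that carries FOXO proteins out of the nucleus, were at -0.38 (p = 0.116) and -0.20 (p = 0.148) in TR3. In TR1, IRS2, PIK3CD and PRKAB2 had the smallest p, and IRS2 moved from 0.94 ± 0.57 (p = 0.107) to -0.063 without the 2 calves.

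Of 19 other forkhead genes listed, 5 had a name, by the same tables. FOXK1, a forkhead factor that competes with FOXO3 at autophagy genes, was at 0.47 ± 0.20 in TR1 (p = 0.0259, adjusted p = 1.00) and 0.51 ± 0.20 in TR2 (p = 0.0144, adjusted p = 0.545), or 0.26 (p = 0.161) and 0.39 (p = 0.0316) without the 2 calves. It was at 0.28 ± 0.21 in TR3 (p = 0.189, adjusted p = 1.00). FOXP2 was at 0.71 ± 0.35 in TR2 (p = 0.0466, adjusted p = 0.589), above the CTR median in 10 of 10 calves, and at -0.77 ± 0.40 in TR3 (p = 0.0579), although 6 of 9 calves of TR3 had more than the CTR median. Its level was low, with means of 0.587 CPM in CTR, 0.926 CPM in TR2 and 0.433 CPM in TR3. FOXS1 and FOXN3 in TR1 and FOXP1 in TR2 and TR3 had p between 0.114 and 0.733.

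Further sets of FoxO signalling genes, 14 selected for TR1 and 12 for TR2 and both with FOXO3 and FOXO4 among them, had been chosen for being higher in the same calves, so that their direction is a description and not independent evidence. In the edgeR fit 14 of 14 were above 0 in TR1, where 50.4% of all genes were, 4 with an unadjusted p under 0.05 (2.55% of all genes) and 0 with an adjusted one, and 10 of 14 were above 0 without A2052 and A2099 (1 with p under 0.05, beside 1.81% of all genes). The TR2 list had 12 of 12 above 0 in TR2, where 51.3% of all genes were, 6 with an unadjusted p under 0.05 (8.34% of all genes), and 12 of 12 without the 2 calves (3 with p under 0.05, beside 6.91% of all genes). In TR3 vs. CTR, 3 of the 14 and 5 of the 12 were above 0, and 7 of the 14 and 7 of the 12 without A2052 and A2099, beside 47.2% of all genes in the full fit.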

How the data were processed

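The authors trimmed adapters and low-quality reads, aligned the rest to ARS-UCD1.2 with STAR 2.7.3a and counted reads per gene of Ensembl release 100. The strand column kept is not given in the sources used here. The deposited values are raw counts, 1 column per calf, and their number limits precision to counting error plus the spread between calves. Groups, sex and dam age came from the labels. Genes with low counts were removed with filterByExpr, counts were scaled by TMM, and edgeR 4.0.16 (R 4.3.3) fitted dam age, sex and group over 38 calves with the quasi-likelihood F-test and Benjamini-Hochberg adjustment at 0.05. The code was tested on simulated data. VST values came from DESeq2 1.42.0. Correlations used log2 CPM (prior count 2) and two-sided permutation tests with 100000 resamples (scipy 1.17.1).

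Gene names were taken from the study's tables, so lists are partial. Named list genes were the 3 with the smallest p per comparison, and genes most alike were the 5 highest and 2 lowest rho. Members and lists were chosen with earlier results of these data known. Alternatives covered DESeq2, library-size scaling, no filter, other covariates, only the groups compared, and leaving out each calf. Without transcript lengths or a matching genome, sequences were not used here. Gene positions in the later build served only to name the neighbours of each FOXO gene.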

Additional observations from a re-analysis of the deposited data

Results flagged for a closer look

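In groups of 9 or 10 calves, the highest or lowest calf was set against the nearest other calf (Dixon's criterion at 95%). It stood apart in 17 of 56 groups tested, 5 of them among the 16 groups of the FOXO genes. Chance gives about 1 in 20 for normal values, but CPM are skewed, and 11.8% of the 51856 groups of all tested genes met the criterion.

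Calf A2052 of TR1 stood apart for FOXO1 at 73.7 CPM (next calf 35.8), for FOXO3 at 35.3 CPM (next 11.0) and, on the low side, for FOXO6 at 12.7 CPM (next 46.0). The same calf stood apart in 7 of the 10 target genes followed. It had 158.9 CPM of FBXO32 (next 30.4), 1148 CPM of TRIM63 (next 176.2) and 378.2 CPM of GABARAPL1 (next 53.4). It also had 255.7 CPM of BNIP3, 256.8 CPM of CDKN1A, 4223 CPM of PDK4 (next 737.1) and 151 CPM of KLF15 (next 17.6).

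Calf A2099 of TR2 stood apart for FOXO3 at 49.9 CPM (next 9.61) and for FBXO32 at 92.6 CPM (next 39.9). Calf A2088 of CTR stood apart for FOXO1 at 35.4 CPM (next 15.7) and for PDK4 at 1029 CPM (next 552.5). Calf A2033 of TR3 had 83.1 CPM of GABARAPL1 (next 39.6). PCK2 was high in calf A2079 of TR2, at 13.4 CPM, and in calf A2065 of TR3, at 46.9 CPM.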

How the results depend on the processing

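In the tests against CTR no FOXO gene had an adjusted p under 0.05 under any alternative, so what follows concerns directions, the standardized difference and unadjusted counts. The cause was not tested for any of these shifts. No paired analysis was possible because the labels give neither replicate numbers shared by the groups nor the block of each dam.

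With dam age as a factor, the log2 fold change turned to -0.062 for FOXO1 in TR1 and -0.25 for FOXO3 in TR3. With only the 2 groups compared, it was -0.054 for FOXO3 and 0.025 for FOXO4 in TR3, and 0.38 for FOXO3 in TR3 vs. TR2. Without covariates it was 0.0075 for FOXO4 in TR3 and -0.12 for FOXO1 in TR2 vs. TR1. With library size in place of TMM it was 0.055 for FOXO3 in females vs. males. Leaving out A2052 and A2099, an alternative added after seeing the data, gave -0.091 for FOXO1, -0.023 for FOXO3 and 0.053 for FOXO6 in TR1, and 0.031 for FOXO4 in TR3. It gave 0.097 for FOXO3 in TR3 vs. TR1, 0.086 for FOXO4 and -0.014 for FOXO6 in TR2 vs. TR1, and 0.0037 for FOXO3 per year of dam age.

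Leaving out 1 calf at a time (38 fits), the TR1 values ran from -0.066 (without A2052) to 0.73 (without A2088) for FOXO1, from -0.087 (without A2052) to 0.64 for FOXO3 and from -0.18 to 0.052 (without A2052) for FOXO6. In TR3 they ran from -0.11 (without A2065) to 0.20 (without A2052) for FOXO3 and from -0.13 to 0.056 (without A2052) for FOXO4. For TR3 vs. TR1 the FOXO3 value ran from -0.64 to 0.29 (without A2052). For TR2 vs. TR1 the range was -0.32 (without A2099) to 0.64 (without A2052) for FOXO3 and -0.091 to 0.15 (without A2052) for FOXO4. For females vs. males it was -0.53 (without A2052) to 0.21 (without A2099) for FOXO3, -0.22 to 0.014 for FOXO4 and -0.076 to 0.19 for FOXO6. Per year of dam age it was -0.15 to 0.12 for FOXO3 and -0.080 to 0.0051 for FOXO4.

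The standardized difference on log2 CPM was 1.35 for FOXO1 and 1.43 for FOXO4 in TR1 and 1.22 for FOXO4 in TR2, all under the threshold. With no filter it was -1.54 for FOXO6 in TR1, and adjusted for dam age and sex 1.49 for FOXO4 in TR2. Leaving out A2052 and A2099 gave -0.21, 0.42 and 1.48 for FOXO1, FOXO3 and FOXO4 in TR1 and 1.09, 0.63 and 1.36 in TR2. Leaving out 1 calf at a time gave -0.21 to 2.83 for FOXO1, 0.43 to 2.17 for FOXO3, 1.37 to 2.20 for FOXO4 and -1.65 to -0.0093 for FOXO6 in TR1. It gave 1.09 to 2.83 for FOXO1, 0.65 to 2.67 for FOXO3 and 1.12 to 1.90 for FOXO4 in TR2, and -4.06 (without A2074) to -0.89 (without A2088) for FOXO1 in TR3.

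Of the FOXO targets, 5 had an unadjusted p under 0.05 in TR1. The number was 8 with DESeq2, 8 with library size, 8 with no filter, 14 without covariates, 2 with dam age as a factor, 2 with only the groups compared and 1 without A2052 and A2099. In TR2 it was 5, but 4 without covariates, 4 with only the groups compared and 3 with dam age as a factor. In TR3 it was 0, but 1 with DESeq2, 1 with no filter, 1 without covariates, 1 with dam age as a factor, 3 with only the groups compared and 2 without A2052 and A2099. The share of all genes at that p moved as well, from 2.55% in TR1 to 2.83, 4.32, 4.24, 4.09, 1.85, 2.95 and 1.81% under the same settings in that order, from 8.34% in TR2 to between 4.26 and 9.07%, and from 1.35% in TR3 to between 1.03 and 3.7%. For the lists that follow, counts within 1.5 times the main one are left out. Of the FOXO regulators, 0 in TR1 became 1 without covariates. Their 3 in TR2 became 1 with library size, 1 without covariates, 1 with dam age as a factor and 1 with only the groups compared. Their 1 in TR3 became 0 without covariates, 0 with dam age as a factor and 0 with only the groups compared. Of the other forkhead genes, 1 in TR1 became 2 without covariates and 0 without A2052 and A2099, and 2 in TR2 became 1 with library size and 0 without covariates.

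Of the 14 FoxO pathway genes selected for TR1, 4 in TR1 became 7 with library size, 7 without covariates, 2 with dam age as a factor, 2 with only the groups compared and 1 without A2052 and A2099. In TR2 their 4 became 1 with dam age as a factor, 1 with only the groups compared and 1 without A2052 and A2099. In TR3 their 0 became 1 without covariates and 1 with only the groups compared. Of the 12 selected for TR2, 1 in TR1 became 2 with DESeq2, 4 with library size, 2 with no filter, 4 without covariates and 2 with only the groups compared. In TR2 their 6 became 3 with only the groups compared and 3 without A2052 and A2099, and in TR3 their 0 became 1 without covariates and 1 with only the groups compared.

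The Spearman correlation of FOXO1 with FOXO4 lost its adjusted call without A2052 and A2099, which are also the 2 calves farthest from the FOXO1 median (0.36), and on residuals after sex, dam age and group (0.42), with 0.41 to 0.52 when 1 calf was left out. The correlation of FOXO1 with PCK2 turned to 0.0023 without A2052 and A2099 and 0.039 on residuals, that of FOXO3 with CDKN1A to -0.11 without them, and that of FOXO6 with CDKN1A to -0.11 on residuals. With library size rho was 0.046 for FOXO1 with FBXO32, 0.045 for FOXO4 with BNIP3 and 0.027 for FOXO4 with CDKN1A. Leaving out 1 calf at a time gave -0.093 to 0.041 for FOXO1 with FBXO32 and -0.029 to 0.12 for FOXO3 with CDKN1A. The 11 pairs of a FOXO gene with a target became 1 without the 2 calves farthest from the median, 6 without A2052 and A2099, and 6 (without A2052) to 13 when 1 calf was left out. The first 2 of these settings leave out different calves only for the FOXO6 pairs.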
